A study of Petromyzon marinus with 4 samples.

Results

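The cells described here are female gonadal cells of the sea lamprey (Petromyzon marinus) in which RNA of both UPK3A and RBP4 was counted. They were chosen in the library of the female transformer, an animal that has passed metamorphosis and has a determined sex. A cell barcode was called with at least 1875 counts and 250 genes. It was selected with at least 1 count of UPK3A and of RBP4, no count of WIF1, and MIOX below 2000 CPM, the counts of a gene scaled by the total of the cell or of the summed cells. The rule took 1385 of 30598 called female barcodes, a share of 4.53% (exact binomial 95% interval 4.30 to 4.77), and all other 29213 called female barcodes served as the comparison. The intervals given here cover counting error only.

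The study profiled wild-caught, wildtype gonads of unknown age in 4 libraries: 1 female transformer, 1 male transformer and 2 of larvae whose gonads were undifferentiated and whose sex was not determined. Tissue was dissociated, live cells were sorted, and polyadenylated RNA was captured with the PIPseq T20 3ʹ kit v4.0. The number of animals behind a library is not given in the labels. With 1 female library there is no replicate of the selected cells, so no test was made, and the values describe these libraries.

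Uroplakins are membrane proteins that form the plaques of the mammalian urothelium, and UPK3A is one of them. RBP4 carries retinol in mammalian plasma. SPARC and CCN2 are matricellular proteins: they are secreted into the matrix, where SPARC binds collagen and CCN2 takes part in matrix remodelling. All 4 genes were given as markers of these cells.

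The 4 libraries held 30598, 40223, 19654 and 20592 called barcodes in the order female, male, larva 1 and larva 2, with median counts of 4714, 7475, 5454 and 5918 per called barcode. None of the selected barcode sequences was called in another library, and 6 to 11 of all called female barcodes were. Scrublet marked 9.17% of the selected cells and 6.10% of the other called female barcodes as doublets.

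The selected cells were not of 1 kind. The called female barcodes were clustered without UPK3A, RBP4, WIF1 and MIOX, which gave 26 clusters, and 1058 of the 1385 selected cells (76.4%) lay in 1 of them, called the leading cluster here. Another 95 (6.86%) lay in a second somatic cluster, 83 (5.99%) in the cluster with the most germ cell markers raised, 7 of 19 found (at least 2-fold over the median cluster and in at least 10% of its barcodes), and the remaining 149 (10.8%) were spread over other clusters. The 83 cells of the germ cell marker cluster were deep, with a median of 41143 counts against 5032 in the selected cells of the leading cluster. They held 33.1% of all counts of the selected cells. Against the 463 other barcodes of that cluster, 1 of 3793 features (0.0264%) was at least 2-fold higher and 29 (0.765%) lower. In these 83 cells SPARC stood at 48.8 CPM and CCN2 at 14.3 CPM, so the given markers SPARC and CCN2 were not high there. UPK3A and RBP4 are fixed by the rule, and SPARC and CCN2 came with the label, so these genes are no check of it. SPARC and CCN2 were high in the leading cluster and not in the germ cell marker cluster. The results below are led by the 1058 selected cells of the leading cluster, and values for all 1385 are set beside them where they differ.

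**Figure D1:**
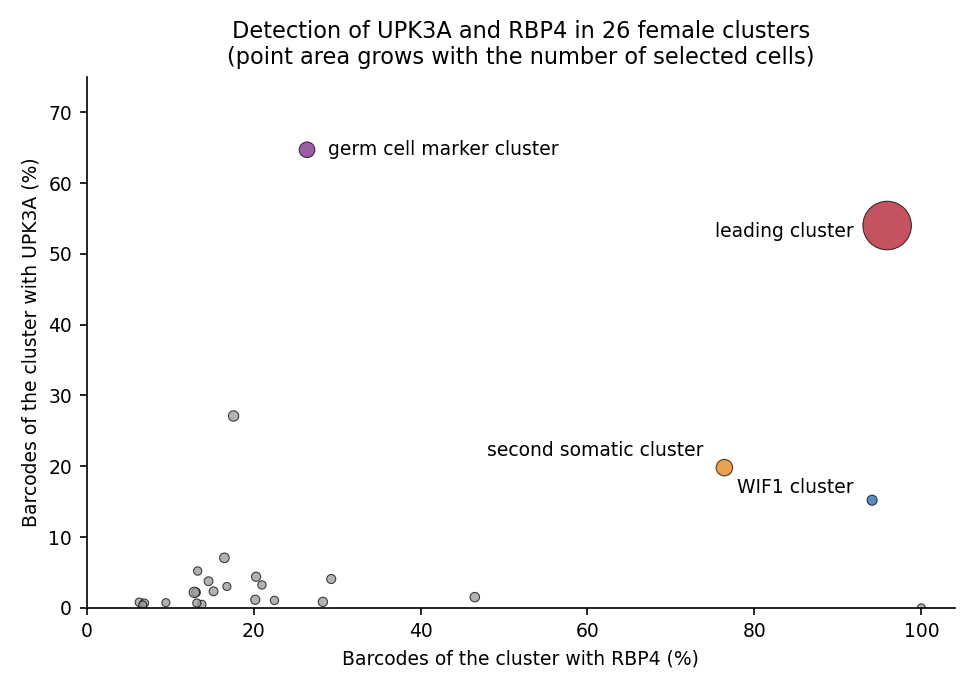
Each point is 1 of 26 clusters of called female barcodes, placed by the percentage of its barcodes with RBP4 (x axis) and with UPK3A (y axis), with a point area that grows with the number of selected cells. The leading cluster had RBP4 in 95.9% and UPK3A in 54.0% of its barcodes. The germ cell marker cluster (26.4% and 64.7%) and the WIF1 cluster (94.1% and 15.2%) stand apart from it. These percentages are not adjusted for depth, with median counts of 4538, 19995 and 3496 in that order. After thinning to the count minimum, UPK3A was in 32.5% of the leading cluster and 11.9% of the germ cell marker cluster. RBP4 was then in 93.0% and 7.14%. Summed UPK3A as counted was at 262 and 79.2 CPM in these 2 clusters.

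The genes of the rule describe how the cells were chosen and support nothing further. UPK3A was at 1 count in 511 selected cells (36.9%), at 2 in 305, at 3 in 198 and at 4 or more in 371. RBP4 was at 4 or more counts in 1207 cells (87.1%), with a median of 17, and at 1 count in 114. Just outside the rule, the largest group met every other condition with no UPK3A. It held more barcodes than the rule took, 917 of them in the leading cluster. Another 478 barcodes met every other condition with no RBP4, and 314 had 1 count of WIF1. Further barcodes were left out by WIF1 alone at 2 or more counts. The highest MIOX of a selected cell was 1791 CPM and the lowest among those left out by MIOX alone was 2069 CPM. The rule took 41.3% of the 2559 barcodes of the leading cluster, and 54.0% of them had any UPK3A. When every called barcode was thinned to 1875 counts, 860 met the rule (2.81%), of which 744 were in the leading cluster and 5 in the germ cell marker cluster.

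Free RNA can give counts of a gene in cells that do not make it. In the cluster with the highest MIOX, 3.02% of barcodes had UPK3A and 16.8% had RBP4 at a median of 16060.5 counts, against 54.0% and 95.9% in the leading cluster at 4538. Female barcodes too shallow to be cells held UPK3A at 24.3 CPM, RBP4 at 346 CPM, SPARC at 555 CPM and CCN2 at 146 CPM in sum.

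SPARC and CCN2 were not used by the rule. SPARC summed to 3772 CPM in the selected cells of the leading cluster and to 592 CPM in all other called female barcodes, a log2 ratio of 2.67 (95% interval 2.65 to 2.69). Over single cells it ran from 0 through a median of 3668 to 10531 CPM, and 99.9% of them had at least 1 count, against 51.5% of the other barcodes. CCN2 summed to 1301 CPM against 110.2 CPM, a log2 ratio of 3.56 (3.53 to 3.60). Single cells ran from 0 through a median of 1100.2 to 9463 CPM, and 92.6% had CCN2 against 19.2%. Both genes were counted in most of these cells and in a smaller share of the rest. Over all 1385 selected cells the log2 ratios were 1.87 for SPARC and 2.74 for CCN2, both smaller than in the leading cluster. Of the 26 clusters the leading one had the highest summed CCN2, while SPARC was higher in 2 others.

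Across all features, 3581 passed the filter in the comparison of the leading-cluster cells with the other called female barcodes. Of these, 350 (9.77%) were at least 2-fold higher and 726 (20.3%) at least 2-fold lower, and the median log2 ratio was 0.01. Because these cells were clustered on the same genes, the counts describe the cluster and are no test of it. A feature under 20 CPM in the other barcodes passed the filter only through the selected cells, so it could not be counted as lower. A feature under 20 CPM in the selected cells likewise could not be counted as higher.

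Genes of the extracellular matrix were among those higher. Of 7 matricellular genes found, 6 passed the filter, 5 were at least 2-fold higher and 1 lower, with a median log2 ratio of 2.27. Of all features 9.77% were higher and 20.3% lower, with a median of 0.01. Besides SPARC and CCN2 these were SMOC1 (LOC116947352, named by the gene table), a calcium-binding matricellular protein, with a log2 ratio of 2.64 and 4.83 CPM in the other barcodes, and CCN1, a relative of CCN2, at 262 against 70.0 CPM. FSTL1, a secreted glycoprotein related to SPARC, was at 34.7 against 11.5 CPM. THBS1, thrombospondin 1, was the lower one at 5.02 against 24.8 CPM. SPARC and CCN2 came with the label, SMOC1 and FSTL1 passed the filter only through the selected cells, and THBS1 only through the other barcodes. The count and the median therefore describe the cluster and support nothing further.

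Of 12 collagen genes found, 4 passed the filter and 3 were higher, all of collagen VI, a microfibrillar collagen of connective tissue. Beside this list and the other lists of this paragraph, 9.77% of all features were higher. With 4 genes that passed in each, the lists are a small base. COL6A1 was at 392 against 80.2 CPM (log2 ratio 2.29), COL6A2 at 259.5 against 65.8 CPM (1.98) and COL6A3 (LOC116947581, named by the table) at 49.5 against 6.72 CPM (2.88). COL6A1 was counted in 80.6% of the cells and 20.4% of the others. COL4A6, a basement membrane collagen, was at 159 against 166 CPM. Of 13 genes of a list of other matrix proteins and their enzymes, 4 passed and 2 were higher: P3H1, a collagen prolyl hydroxylase, at 239 against 70.7 CPM, and LTBP1, which binds latent TGF-beta, at 146 against 43.5 CPM. Among 8 stromal markers found, 4 passed and all 4 were higher: the 3 collagen VI genes already counted above, and PRRX1. PRRX1, a homeobox factor of mesenchyme, was at 55.8 against 14.3 CPM. COL6A3 and PRRX1 passed the filter only through the selected cells. Of those that did not pass, PDGFRA (LOC116942836, named by the table) was at 3.25 against 4.68 CPM and DPT at 2.21 against 0.969 CPM. The rule set WIF1 to 0.

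Among genes of BMP and TGF-beta signalling, 6 of 15 found passed the filter, 2 were higher and none was lower. Beside this list and the Wnt list below, 9.77% of all features were higher and 20.3% lower. So few genes that passed are a small base. FST, follistatin, which binds activin, was at 40.0 against 5.27 CPM (log2 ratio 2.93), and TWSG1, a BMP-binding protein, at 181 against 47.1 CPM (1.95). FST was counted in 16.4% of the selected cells and passed the filter only through them. Of 27 Wnt pathway genes, 4 passed, and of these CTNNB1, beta-catenin, was higher at 134 against 63.3 CPM. LOC116944098, which the table names NKD2, an inhibitor of the pathway, was also higher at 25.8 against 8.32 CPM. It passed only through the selected cells. Another feature, named NKD2 itself, did not pass, at 12.3 against 8.48 CPM. WNT6, a ligand, at 5.76 against 36.0 CPM, and LGR5, a receptor for R-spondins, at 10.9 against 57.6 CPM, were lower. WNT6 and LGR5 passed the filter only through the other barcodes.

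S100A1, a calcium-binding protein, was at 6103 against 1081 CPM, and it was counted in 72.4% of the other barcodes. ANXA2, an annexin that binds membranes, was at 1344 against 443 CPM. HES1, a transcriptional repressor and Notch target in mammals, was at 177 against 27.0 CPM (log2 ratio 2.71). NFKBIA (LOC116947230, named by the table), an inhibitor of NF-kappa-B, was at 875 against 149 CPM, though only 64.9% of the cells had it. MYLK, myosin light chain kinase, was at 100.4 against 23.3 CPM.

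Other genes with large ratios ranged from low to high levels. OCA2, a melanosomal transporter in mammals, was at 52.3 against 5.14 CPM (log2 ratio 3.35), and DNASE1, a secreted endonuclease, at 27.5 against 2.75 CPM (3.32). KCNQ1 (LOC116939929), a potassium channel subunit, was at 65.3 CPM (3.22) and CD109 (LOC116945124), a surface glycoprotein, at 134 against 17.2 CPM. EVPL, envoplakin, a cytolinker of epithelia in mammals, was at 40.2 against 6.36 CPM, and EPPK1 (LOC116946469), epiplakin, at 49.0 against 5.22 CPM. The names KCNQ1, CD109 and EPPK1 come from the gene table. OCA2 was counted in 25.1% of the cells, DNASE1 in 12.9%, KCNQ1 in 30.4%, EVPL in 21.1% and EPPK1 in 23.4%. Most of the cells thus had no count of each of these genes, while CD109 was counted in 52.9%. Of the features without a name, LOC116944697 was at 78.1 against 5.50 CPM (3.83). LOC116940515 was at 2109 against 159 CPM and was counted in 99.1% of the cells. Of the genes of this paragraph, only LOC116940515 reached 20 CPM in the other barcodes. The rest passed the filter only through the selected cells, could not be counted as lower, and were picked for large ratios.

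Genes that were lower included transporters and metabolic enzymes. SLC3A1, an amino acid transporter subunit, was at 0.591 against 35.0 CPM (log2 ratio -5.72), and ATP1B1, a sodium pump subunit, at 10.5 against 334 CPM (-4.98). HPD, an enzyme of tyrosine breakdown, was at 2.95 against 94.6 CPM and G6PC, glucose-6-phosphatase, at 11.8 against 335 CPM. SLC3A1, ATP1B1, HPD and G6PC passed the filter only through the other barcodes. These genes were low in the WIF1 cluster as well, SLC3A1 at 1.45, ATP1B1 at 10.5, HPD at 3.39 and G6PC at 14.3 CPM. Over all features of this comparison, 20.3% were at least 2-fold lower and 9.77% higher. Of 23 solute carriers that passed the filter, 12 were at least 2-fold lower and 1 was higher. Over all 1385 selected cells, 9 of 28 were lower and 6 higher, where 11.9% and 18.4% of all features were. Against the WIF1 cluster, 1 of 14 solute carriers was higher and none was lower, beside 3.62% and 5.13% of all features. Of 55 nuclear genes of oxidative phosphorylation that passed, 23 were at least 2-fold lower and none was higher, with a median log2 ratio of -0.86. Over all 1385 selected cells 13 of 56 of these genes were lower, beside 11.9% of all features. Against the WIF1 cluster none of 53 was lower, with a median of -0.13, beside 5.13% of all features. Ribosomal protein genes had a median of 0.39, and none of 68 passed 2-fold.

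In the leading cluster no other uroplakin was at least 2-fold higher. UPK2 was at 13.1 against 13.3 CPM, and the feature the table names UPK1A (LOC116948204) was at 2.81 against 15.5 CPM. Over all 1385 selected cells LOC116948204 was at 74.7 CPM (log2 ratio 2.27), with 198 CPM in those of the germ cell marker cluster. Of 39 retinoid genes listed, 15 were found, and of these only 2 beside RBP4 passed the filter, neither at 2-fold. RARB (LOC116948576, named by the table), a retinoic acid receptor, was at 24.8 against 27.3 CPM.

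Some markers of other cell types were lower in these cells and others higher. Of the renal tubule markers other than MIOX, which the rule limited, CUBN was at 9.01 against 164 CPM and FTCD at 4.28 against 102 CPM. In the WIF1 cluster CUBN was at 7.99 CPM and FTCD at 4.72 CPM. CUBN and FTCD passed the filter only through the other barcodes. Summed endothelial markers were at 16.8 against 45.5 CPM, and steroidogenic markers at 4.87 against 14.8 CPM. Supporting cell markers summed to 58.0 against 31.9 CPM, of which FST was 40.0 CPM, and the 1 smooth muscle marker found was MYLK, given above. Germ cell markers summed to 209 against 111 CPM, and NANOS1, an RNA-binding regulator of germ cells in other animals, made up 192 CPM of it. NANOS1 was at 209.5 CPM in the WIF1 cluster and reached 276 CPM in another cluster, so its level was not particular to these cells. Of other germ cell genes, DDX4 was at 3.54 against 3.41 CPM, PIWIL1 at 0.738 against 2.49 CPM and MAEL at 0.295 against 1.11 CPM. The highest level in another cluster was 8.93 CPM for DDX4, and in the germ cell marker cluster PIWIL1 reached 29.4 CPM and MAEL 5.71 CPM. DDX4 was thus low throughout this library, and its level does not set these cells apart from germ cells. No feature of the erythroid, myeloid, lymphocyte or adipocyte lists was found by name.

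**Figure D2:**
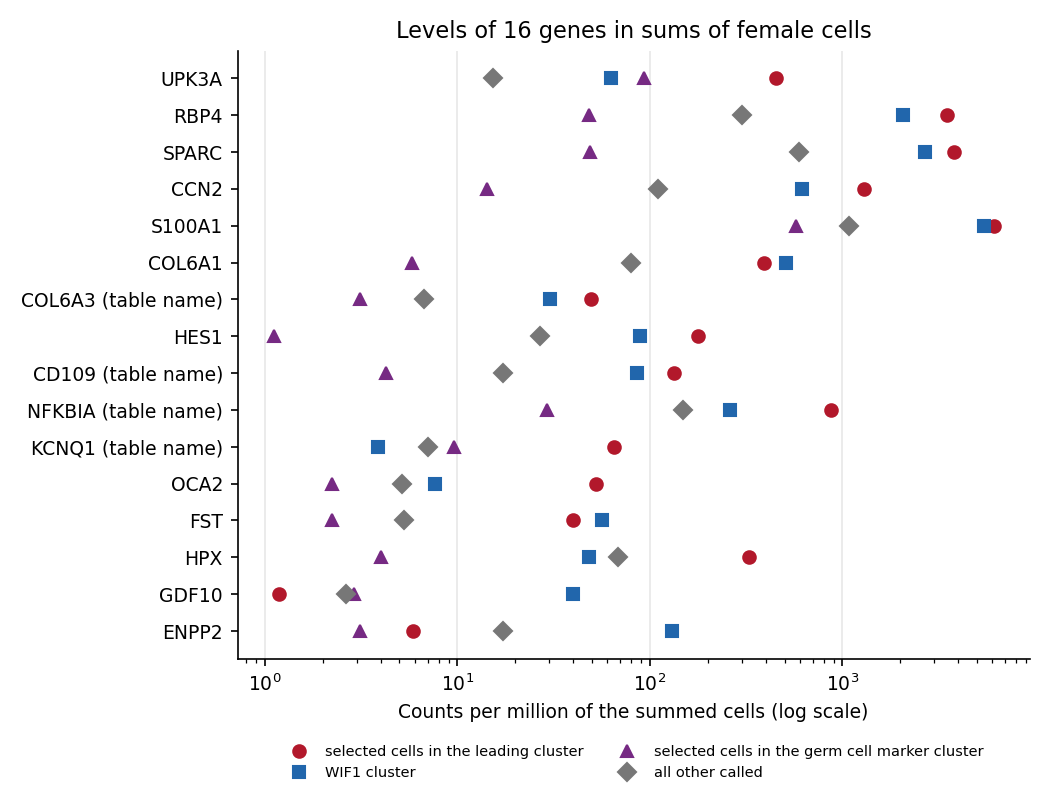
The summed level of 16 genes in CPM on a log axis, in the selected cells of the leading cluster (circles), the WIF1 cluster (squares), the selected cells of the germ cell marker cluster (triangles) and all other called female barcodes (diamonds). SPARC stood at 3772, 2676, 48.8 and 592 CPM in that order, and GDF10 and ENPP2 were highest in the WIF1 cluster.

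The selected cells were also set against the WIF1 cluster, in which RBP4, SPARC and collagen VI were high as well. WIF1 is a secreted inhibitor of Wnt ligands, and the rule itself left out every barcode with WIF1. Of 3235 features that passed the filter, 117 (3.62%) were at least 2-fold higher and 166 (5.13%) lower in the selected cells of the leading cluster than in the WIF1 cluster, with a median log2 ratio of -0.11. Higher were KCNQ1 at 65.3 against 3.87 CPM and HPX, hemopexin, which binds heme in mammals, at 328 against 48.3 CPM. HPGDS, a prostaglandin D synthase, was also higher, at 348 against 61.4 CPM. In all other called female barcodes HPGDS was at 373 CPM, so it was not high in the selected cells against them. HPX was at 68.3 CPM in those barcodes but reached 3141 CPM in another cluster. CCN2 was at 1301 against 617 CPM (log2 ratio 1.08), while SPARC was at 3772 against 2676 CPM (0.49). Lower were GDF10, a BMP-family ligand, at 1.18 against 39.8 CPM (-4.99), and ENPP2, which makes lysophosphatidic acid, at 5.91 against 130.0 CPM (-4.44). SELENBP1, a selenium-binding protein, was at 9.01 against 192 CPM, and VEGFC (LOC116943620, named by the table), a growth factor of lymphatic vessels in mammals, was at 8.86 against 102 CPM. GDF10, ENPP2, SELENBP1 and VEGFC passed the filter only through the WIF1 cluster. IGFBP7, an IGF-binding protein, was at 510.2 against 1632 CPM, and PRRX1 at 55.8 against 121 CPM. Of the 3 collagen VI genes, none passed 2-fold between the clusters. Other genes given above as higher were also under 2-fold here. In the WIF1 cluster S100A1 was at 5406 CPM, ANXA2 at 1704 CPM, CCN1 at 296 CPM and FSTL1 at 41.2 CPM. P3H1 was at 310.3 CPM there, LTBP1 at 189 CPM, CTNNB1 at 152 CPM and NKD2 (LOC116944098) at 24.3 CPM. HES1 was at 88.8 CPM, CD109 at 85.9 CPM, EPPK1 at 33.4 CPM, EVPL at 20.3 CPM and TWSG1 at 148 CPM. The feature LOC116940515 was at 1111 CPM in that cluster. SMOC1, NFKBIA, MYLK, DNASE1 and OCA2 stayed at least 2-fold higher in the selected cells. SMOC1, DNASE1, OCA2 and KCNQ1 passed the filter here only through the selected cells. In other clusters SMOC1 reached 65.6, MYLK 94.7, DNASE1 26.1 and NFKBIA 826 CPM. The whole leading cluster had them at 28.6, 90.2, 24.0 and 935 CPM. OCA2 reached 11.7 CPM in another cluster, against 47.9 CPM in the leading one.

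Within the leading cluster the rule set few genes apart. The 1058 selected cells were compared with 917 cells of the same cluster that met the rule in all but UPK3A, which was at 0. Of 2983 features, 5 (0.168%) were at least 2-fold higher and 2 (0.0670%) lower. FST was at 40.0 against 13.3 CPM (log2 ratio 1.58, 95% interval 1.18 to 2.02) and ESM1, a secreted proteoglycan of endothelium in mammals, at 49.0 against 19.9 CPM (1.29, 0.96 to 1.65). In the WIF1 cluster both were higher than in the selected cells, FST at 56.4 CPM and ESM1 at 84.8 CPM. SPARC was at 3436 CPM and CCN2 at 889.6 CPM in the cells without UPK3A. The selected cells had a median of 5032 counts and the others 3805. Between the deeper and the shallower 529 selected cells, FST was at 36.6 and 49.0 CPM and ESM1 at 48.2 and 51.1 CPM. LOC116939356 was at 134 and 24.2 CPM and LOC116944519 at 94.4 and 29.6 CPM, both higher in the deeper cells. That split lies within cells chosen for UPK3A, which was at 374 and 653 CPM in them. The part of depth in the differences of FST, ESM1 and the LOC features was not tested.

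Over all 1385 selected cells, 719 of 3909 features (18.4%) were at least 2-fold higher and 467 (11.9%) lower than in the other called female barcodes, and 154 of the 719 were also 2-fold higher in the leading cluster. Of the 45 genes named for that comparison, 41 were at least 2-fold higher or lower, and 13 of these turned direction when the 1058 cells of the leading cluster were taken alone. CCNB2, a cyclin of cell division, was at 1311 CPM in all selected cells, 11.1 CPM in those of the leading cluster and 3925 CPM in those of the germ cell marker cluster, against 227 CPM in the other barcodes. NASP, a histone chaperone, was at 1245, 11.8 and 3730.5 CPM against 215 CPM. Of 8 cell cycle genes that passed the filter with all selected cells, 6 were higher. With the leading cluster alone, 4 passed, none was higher and 2 were lower, beside 9.77% and 20.3% of all features.

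**Figure D3:**
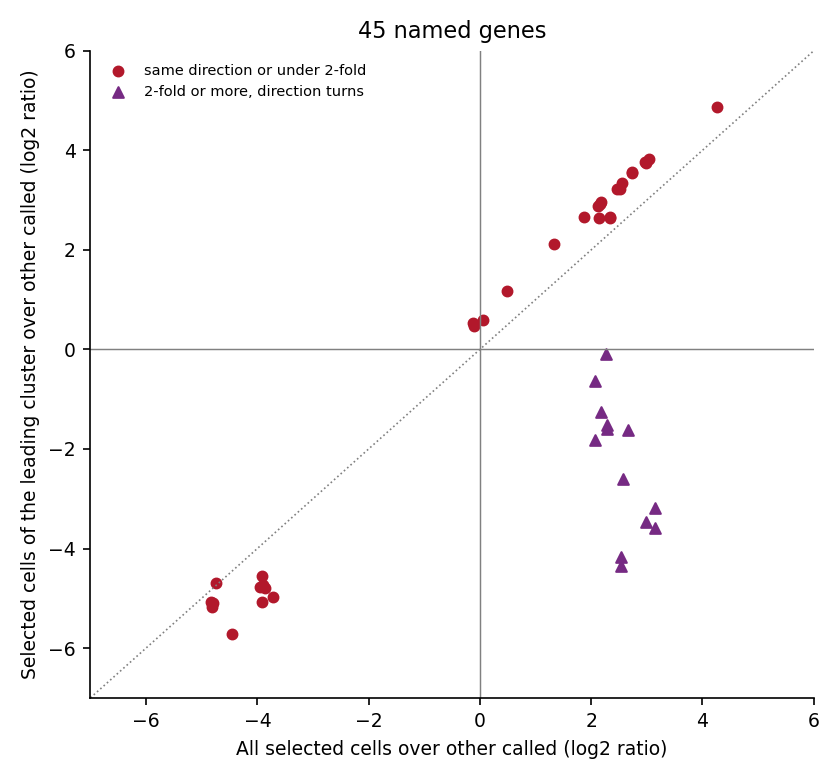
Log2 ratios over the other called female barcodes of 45 named genes, for all 1385 selected cells (x axis) and for the 1058 of the leading cluster (y axis), with a dotted line of equality. The 13 triangles are genes at least 2-fold higher in all selected cells whose direction turns in the leading cluster.

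The 95 selected cells of the second somatic cluster carried the 4 markers at lower levels, with SPARC at 1815 CPM and CCN2 at 628 CPM. Of 2971 features, 75 (2.52%) were at least 2-fold higher and 470 (15.8%) lower than in the selected cells of the leading cluster. The median log2 ratio over these features was -0.60, so lower levels were not particular to the markers. LOC116951579 was at 50936 against 1086 CPM and LOC116951565 at 56684 against 1285 CPM. In other clusters they reached 105934 and 125894 CPM. NCOA4, a receptor for ferritin breakdown, was at 693 against 67.9 CPM and BLVRB, biliverdin reductase B, at 118 against 25.8 CPM. Scrublet marked 57.9% of these 95 cells as doublets, against 3.02% of the selected cells of the leading cluster. It marked 44.4% of the other barcodes of the second somatic cluster. The part of doublets in the levels of the 95 cells was not tested.

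In the other libraries the same rule took fewer barcodes. It took 795 of 40223 in the male transformer (1.98%, 1.84 to 2.12), 97 of 19654 in larva 1 (0.494%, 0.400 to 0.602) and 98 of 20592 in larva 2 (0.476%, 0.387 to 0.580). Those barcodes were deep: their median was 10841 counts in the male, 23435 in larva 1 and 26976 in larva 2. After thinning to 1875 counts the shares were 2.81% in the female, 0.224% in the male, 0.0356% in larva 1 and 0.0243% in larva 2. At that depth all 4 markers were counted together in 792 female barcodes (2.59%), 34 male barcodes (0.0845%) and 1 barcode in each larval library. The rule was made on the female library, so these shares describe the libraries and are no test of a difference. Sex, stage and library cannot be told apart in this design.

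**Figure D4:**
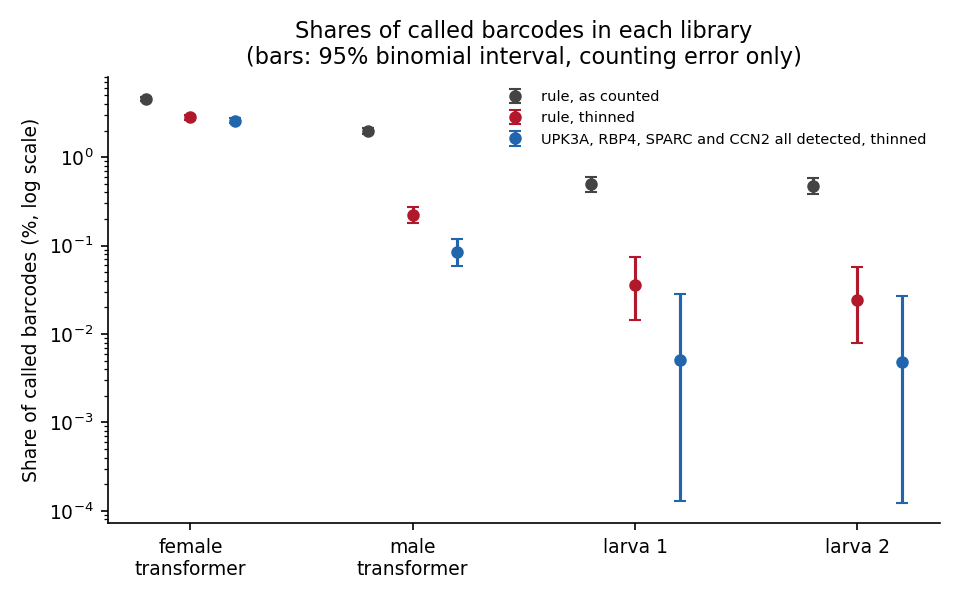
Share of called barcodes in each library, in percent on a log axis, that met the rule as counted, that met it after thinning to 1875 counts, and in which all 4 markers were counted after thinning, with exact binomial 95% intervals of counting error. The thinned shares that met the rule were 2.81%, 0.224%, 0.0356% and 0.0243% in the female, the male, larva 1 and larva 2.

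The barcodes that met the rule in the larval libraries held the other 2 markers at lower levels than the rest. SPARC was at 152 CPM in those of larva 1 against 886 CPM in its other called barcodes, and at 186 against 888 CPM in larva 2. CCN2 was at 25.5 against 129 CPM and at 36.5 against 138 CPM. In the male library SPARC was at 194 against 122 CPM and CCN2 at 49.8 against 15.5 CPM, against 2163 and 739 CPM in all 1385 female barcodes that met the rule. Summed germ cell markers in the barcodes that met the rule were at 1016 CPM in the male, 394 CPM in larva 1 and 399 CPM in larva 2, against 874, 226 and 224 CPM in the rest of those libraries, and their part in these levels was not tested.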

How the data were processed

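The authors deposited a matrix of counts per gene and barcode for each library. Whether a count is a molecule or a read, the aligner and the genome build are not given in the sources used here. Features are named as in the files. Names of LOC features were taken from a RefSeq gene table (assembly UKy_Petmar_22M1.pri1.0), which holds 11871 of 13987 of them and gives 688 another symbol. The 24 features with no assigned gene held 2.53% of the counts of called female barcodes and were not compared.

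Called female barcodes were scaled to 10000, and 2000 variable genes without the 4 rule genes, 30 principal components, 15 neighbours and Leiden clustering at resolution 1 were used (scanpy 1.11.5, leidenalg 0.10.2). Doublets were marked with Scrublet and kept; its automatic limit marked under 0.5% in the male and larval libraries, where the 95th percentile of the score was used. Counts were summed per set of cells, and a feature was compared with at least 20 counts in both sets together and 20 CPM in one set. Log2 ratios carry 0.5 added counts, and the rule genes were not counted among changed features. Called means a 2-fold difference. Intervals of ratios and shares are at 95% and cover counting error only.

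Named genes were the 4 markers, the 20 symbols and 6 LOC features with the largest higher ratios and the 8 and 3 with the largest lower ratios, counted in at least 10% of the cells of the set in which they are high, the 5 most abundant features, and up to 4 examples of a list. The members and lists were chosen with earlier results of these data known. Alternatives changed the rule, filters, scaling (edgeR 4.0.16) and clustering.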

Additional observations from a re-analysis of the deposited data

Results flagged for a closer look

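SPARC and CCN2 lay on opposite sides of the other called barcodes in the female and the larval libraries. In barcodes that met the rule, the log2 ratio of SPARC over the other called barcodes was 1.87 in the female transformer, -2.54 in larva 1 and -2.25 in larva 2. The log2 ratio of CCN2 was 2.74 in the female transformer, -2.34 in larva 1 and -1.92 in larva 2. The difference between the libraries was not tested. The barcodes that met the rule in the larvae had median counts of 23435 and 26976, against 5845 in the female, and the part of depth in this difference was not tested.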

How the results depend on the processing

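The share of called female barcodes that met the rule was 4.53%. It was 5.15% with a doubled count minimum, 2.81% after thinning, 2.66% with at least 2 counts of UPK3A and RBP4, and 6.73% with no condition on WIF1. The male share of 1.98% was 2.24%, 0.224% and 0.196% under the first 3 of these. For larva 1 the share of 0.494% was 0.696%, 0.0356% and 0.0458%, and for larva 2 the share of 0.476% was 0.642%, 0.0243% and 0.0777%. The 719 features at least 2-fold higher became 250 after thinning, 434 with at least 2 counts of both genes, 346 with means of per-cell CPM and 3328 with no filter on low counts. The 467 lower features became 250 when only barcodes under the MIOX limit were compared and 1962 with no filter. In alternatives added after the data were seen, the higher features were 350 and the lower 726 with the leading cluster alone, and the higher were 286 without the germ cell marker cluster. The leading cluster held 70.3% of the selected cells at Leiden resolution 2, against 76.4%.

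Of 45 named genes, 41 differed at least 2-fold, and 11 of these turned direction after thinning: OGFOD2 -0.45, SENP8 -0.68, NASP -1.27, CCNB2 -1.44, MAIP1 -0.32, VAT1 -0.38, DCK -0.27, LOC116946568 -0.83, LOC116956113 -1.40, LOC116956115 -0.59 and LOC116956104 -0.75 (log2 ratios). With the leading cluster alone, 13 of the 41 turned: OGFOD2 -1.62, SENP8 -2.60, NASP -4.18, CCNB2 -4.35, MAIP1 -1.52, VAT1 -1.60, DCTD -0.10, DCK -1.25, LOC116946568 -1.82, PDIA4 -0.64, LOC116956113 -3.58, LOC116956115 -3.18 and LOC116956104 -3.47. Without the germ cell marker cluster the same 13 stood at OGFOD2 -1.75, SENP8 -2.56, NASP -4.05, CCNB2 -3.80, MAIP1 -1.66, VAT1 -1.53, DCTD -0.17, DCK -1.33, LOC116946568 -1.92, PDIA4 -0.72, LOC116956113 -3.34, LOC116956115 -3.19 and LOC116956104 -3.39. Under the other 14 alternatives none of the 41 turned direction. Of the 4 genes under 2-fold, LOC116948233 (-0.11) and LOC116946621 (-0.12) changed sign under these 3 alternatives, with at least 2 counts of both genes and with means of per-cell CPM, and HSPA8 (0.05) with edgeR factors and without the 10 most abundant features. No paired analysis was possible because the selected cells come from 1 library and no test was made, and no replicate could be left out.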

Other observations

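Beyond the leading cluster, UPK3A was also counted in 27.1% of the 432 barcodes of another female cluster. Of 11 urothelial markers listed, 4 were found, UPK3A itself among them, and 3 were raised in this cluster. RBP4 was counted in 17.6% of its barcodes, SPARC stood at 76.8 CPM and CCN2 at 67.6 CPM, and 20 of these barcodes met the rule. In a cluster of 35 barcodes every barcode had RBP4, at 8309 CPM in sum, and none had UPK3A, which at 35 barcodes is a small base.

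The 529 deeper and the 529 shallower selected cells of the leading cluster had median counts of 8295 and 3557. Of 3074 features, 6 (0.195%) were at least 2-fold higher and 14 (0.455%) lower in the deeper cells. SPARC was at 3751 and 3827 CPM, CCN2 at 1227 and 1498 CPM, and COL6A1 at 386 and 406 CPM in the deeper and shallower cells.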
